A study of Mus musculus with 37 samples.

Results

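Colons of mice without a working Timp1 gene were compared with wild-type colons after the chronic course of dextran sodium sulphate (DSS), a detergent-like polysaccharide that injures the colonic lining and is given orally to cause colitis. The comparison set 10 of the series' 37 arrays against each other, grouped by their labels: 5 knockout (KO) and 5 wild-type (WT) mice of the chronic DSS groups. Unless stated otherwise, the spread behind the SEs and p-values was estimated from all 37 arrays, the acute groups included. KO mice were of the strain B6.129S4-Timp1tm1Pds/J and WT mice of C57BL/6J. Beside them stood the chronic controls, 5 KO and 5 WT mice labelled as controls of the same phase. Each array measured RNA of snap frozen whole colon on the Affymetrix Mouse Gene 1.0 ST platform, which reads each gene with probes along its length. The labels give no DSS dose, no number of days or cycles, no age and no sex, and they do not say which stretch of Timp1 the allele removes. All 5 KO DSS mice carry animal numbers that start with 14 and all 5 WT DSS mice numbers that start with 11, so genotype and number series cannot be told apart within the 10 arrays.

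TIMP1 is a secreted inhibitor of matrix metalloproteinases (MMPs), enzymes that cut collagens and other matrix proteins and release growth factors and cytokines from them. Fibroblasts, epithelium and myeloid cells produce it in injured tissue, and its RNA is a common marker of inflammation and scarring in the gut. Its relatives TIMP2, TIMP3 and TIMP4 and the membrane-bound inhibitor RECK act on overlapping sets of proteases. Neutrophils carry MMP9 in their granules, and activated fibroblasts and macrophages secrete MMP3, MMP10 and MMP13 in colitis.

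Values are log2 signals after robust multi-array averaging (RMA), so a difference of 1 is a 2-fold difference. They were tested for 19938 genes. The colon label was borne out by its defining markers: the epithelial keratin gene Krt8 lay at 14.10 to 14.18 in KO DSS colons and 14.16 to 14.24 in WT DSS colons, and the goblet cell mucin gene Muc2 at 14.18 to 14.28 in KO and 13.92 to 14.31 in WT. Pairwise correlations over all genes were 0.979 to 0.990 within the KO DSS group and 0.977 to 0.992 within the WT DSS group. Between the groups they were 0.963 to 0.992, so some KO and WT arrays were as alike as arrays of the same group. The arrays differed in markers of position along the colon in both groups: Hoxb13, a homeobox gene of the distal end, had signals of 10.69, 7.53, 6.90, 6.04 and 10.57 in KO and 7.56, 6.83, 10.70, 10.51 and 8.80 in WT. The part of this in the results was not tested. A lower signal in bulk tissue can come from fewer cells of a type or from less RNA per cell, which cannot be told apart here.

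Under chronic DSS, the genes lower in KO colons included Hp, Retnlg, Mmp9 and several of ribosome assembly, and those higher included Xpnpep2, Wdfy1, Clk1 and some zinc finger genes. In all, 495 of 19938 genes passed at an adjusted p under 0.05 (limma, Benjamini-Hochberg), which is 2.48% of genes tested. Of these, 235 were higher in KO (1.18%) and 260 were lower (1.30%). The differences were mostly small: their median size was 0.34, and 2 of the higher and 9 of the lower genes reached 2-fold. The KO and WT values did not overlap at all for 205 of the 495 genes, 92 of them higher and 113 lower in KO. Over all genes tested, 629 (3.15%) had groups that did not overlap, 251 with KO above WT (1.26%) and 378 with KO below WT (1.90%). Tested cluster by cluster, 1123 of 35511 clusters were higher in KO (3.16%) and 545 lower (1.53%). Among 21789 clusters with 1 gene symbol these were 405 (1.86%) and 377 (1.73%), and among 12101 clusters without an annotation 666 (5.50%) and 144 (1.19%).

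These counts leaned on single arrays. Without WT replicate 3 only 58 genes passed, 56 of them among the 495. Without KO replicate 3, 4 or 5 the count was 116, 106 and 101, and without WT replicate 1 it was 285. Leaving out KO replicate 1 or KO replicate 2 gave 1010 and 780 genes instead. WT replicate 3 was the WT array farthest from KO for 161 of the 235 higher genes (68.5%) and for 139 of the 260 lower genes (53.5%), and KO replicate 1 was the KO array nearest to WT for 123 (52.3%) and 166 (63.8%). A fit on the 10 arrays alone passed 12 genes, 8 higher and 4 lower. A fit that took the number series as a covariate, estimated from the WT controls, passed 19 (0.0953%), of which 5 were among the 495. These were Xpnpep2, Ezh1, Mterf2, Tbl2 and Trim65, the last 4 chosen for naming after their values were seen. In that fit 494 of the 495 differences kept their sign. The 495 were selected by the DSS difference on these same arrays, so the kept signs are no check on the number series.

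**Figure D1:**
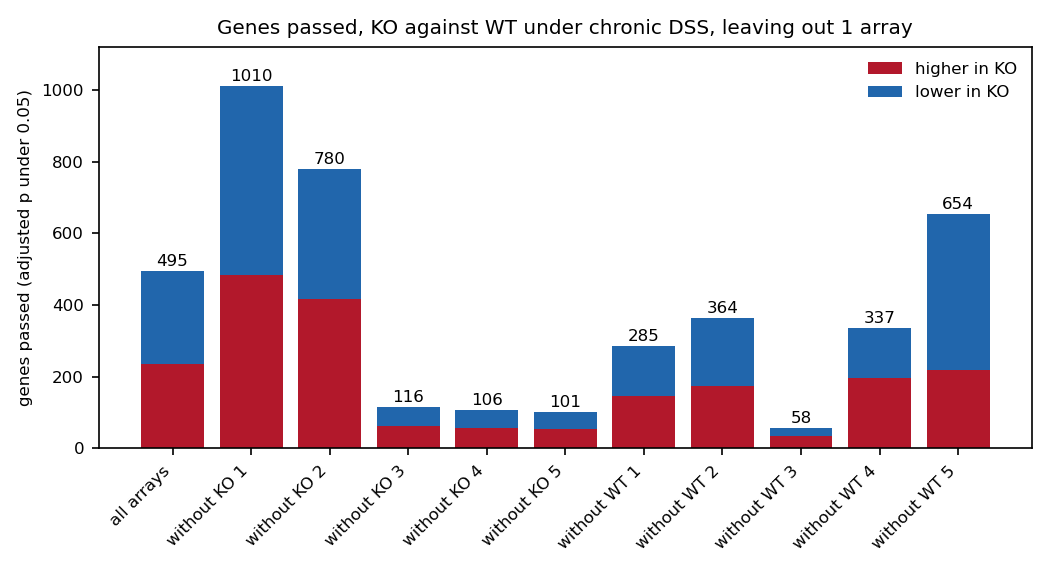
Number of genes passing at an adjusted p under 0.05 (vertical axis) with all arrays and with each of the 10 DSS arrays left out in turn, split into genes higher and lower in KO. The count was 58 without WT replicate 3 and 1010 without KO replicate 1, against 495 with all arrays.

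Timp1 itself was lower in KO DSS colons. Its signals were 7.30, 7.10, 7.01, 6.83 and 6.89 in KO (7.03 ± 0.19, SD, n = 5) and 9.27, 7.93, 8.91, 8.72 and 7.20 in WT (8.41 ± 0.84, SD, n = 5). The ranges touched at their ends: KO replicate 1 lay above WT replicate 5, whose Timp1 signal lay within the range of the WT controls. The difference was -1.38 ± 0.34 (SE; limma adjusted p = 0.0255), or 2.60-fold, and an exact two-sided permutation test over the 10 arrays gave p = 0.0159, where 0.00794 is the smallest p that 252 splits allow. In the chronic controls Timp1 had signals of 7.03, 6.84, 6.95, 7.46 and 7.43 in KO and 7.28, 7.09, 7.07, 6.99 and 7.21 in WT, a difference of 0.01. Within WT mice, Timp1 was higher after DSS than in controls by 1.28 (adjusted p = 0.01), and within KO mice DSS and control differed by -0.11; both share arrays with the genotype comparison. The DSS difference minus the control difference was -1.39 (adjusted p = 0.157). The call ended without any of WT replicates 1, 3 and 4 or KO replicates 3, 4 and 5 (adjusted p 0.0583 to 0.111), and with the 10 arrays alone (adjusted p = 0.137).

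No relative of Timp1 passed. Timp2 differed by -0.33 (adjusted p = 0.259), with 10.82, 10.61, 10.87, 10.96 and 11.13 in KO and 11.36, 11.26, 11.20, 11.17 and 11.04 in WT. The differences of Timp3, Timp4 and Reck were -0.12, -0.19 and 0.20. None of the 10 nearest measured genes with a name in the RefSeq gene order passed either. Among them Cfp, the gene of properdin in the alternative complement pathway, differed by -0.71 (adjusted p = 0.12). Araf, which encodes a kinase of the RAF family, differed by 0.16 (adjusted p = 0.123) and lay above WT in all KO arrays. Of 31 measured genes within 40 entries on either side, 1 passed, beside 2.48% of all genes. It was Wdr44 at 0.51 (adjusted p = 0.0173), named after its value was seen. The call of Wdr44 ended without WT replicate 3 or KO replicate 3, 4 or 5 (adjusted p up to 0.0933).

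Genes of matrix-cutting proteases were mostly lower in KO, and among them Mmp9 passed. Mmp9, the gelatinase of neutrophil granules, had 8.10, 7.55, 7.04, 7.08 and 7.16 in KO DSS colons and 9.10, 8.03, 9.38, 9.17 and 7.63 in WT DSS colons. KO replicate 1 lay above WT replicates 2 and 5, and the other 4 KO values lay below all WT values. The difference was -1.28 ± 0.33 (SE; adjusted p = 0.0302), against -0.07 in controls. The 7 metalloproteinase genes known to be induced by inflammation all had negative differences, beside 44.0% positive over all genes. Their median was -1.28 beside -0.02 over all genes, and 1 of 7 passed (background for lower genes 1.30%). Genes of a list are not independent of each other, so such counts of signs carry no test. Mmp10, Mmp3 and Mmp13, the stromelysins and collagenase of activated stroma and macrophages, differed by -1.67, -1.48 and -1.44 and did not pass (adjusted p 0.0907, 0.176 and 0.208). The call of Mmp9 ended without any of WT replicates 1, 3 and 4 or KO replicates 3, 4 and 5 (adjusted p 0.0793 to 0.139).

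Other parts of the proteolytic and matrix program showed smaller differences. Mmp2, a gelatinase of fibroblasts, differed by -0.83 (adjusted p = 0.0576), with 11.13, 10.60, 10.56, 10.90 and 11.15 in KO and 11.98, 11.65, 12.00, 11.70 and 11.15 in WT. Apart from WT replicate 5, all WT values lay above the KO values. None of 16 ADAM and ADAMTS genes, none of 7 plasminogen system genes, none of 20 collagen genes and none of 27 genes of other matrix proteins and cross-linkers passed. Their median differences were -0.31, -0.27, -0.30 and -0.29. Of their members 16 of 16, 7 of 7, 19 of 20 and 25 of 27 were negative, beside 44.0% positive over all genes. Examples are the urokinase receptor gene Plaur at -0.78 (adjusted p = 0.0592), the collagen genes Col12a1 and Col1a1 at -0.85 and -0.69, and Lox, the lysyl oxidase that cross-links collagen, at -1.32 (adjusted p = 0.0975). Of 20 genes of activated fibroblasts 1 fell and of 15 endothelial genes 1 fell, beside 1.30% lower over all genes. The fibroblast gene was Wnt5a, a secreted WNT ligand, which fell by 0.64 (adjusted p = 0.0467). The endothelial gene was Vwf (von Willebrand factor), which fell by 0.59 (adjusted p = 0.0406). Both calls ended without WT replicate 1, 3 or 4 or any of KO replicates 2 to 5 (adjusted p up to 0.172).

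Hp and Retnlg, genes of the acute-phase response and of neutrophils, were among the genes with the largest decreases. Hp, which encodes haptoglobin, the plasma protein that binds free haemoglobin, had 7.60, 6.82, 6.80, 6.77 and 6.95 in KO DSS colons and 10.62, 7.86, 9.81, 9.57 and 7.29 in WT DSS colons. KO replicate 1 overlapped WT replicate 5 alone, and the WT values spread over more than 3 units. Hp fell by 2.04 ± 0.48 (SE; adjusted p = 0.0197), a 4.11-fold difference. Retnlg, a resistin-like gene of neutrophils, had 6.89, 6.72, 6.46, 6.47 and 6.52 in KO and 9.01, 7.39, 8.76, 8.73 and 6.76 in WT, and fell by 1.52 (adjusted p = 0.0442). WT replicates 2 and 5 were the low WT arrays for both genes, as they were for Timp1. Both calls ended without WT replicate 1 or 3 or KO replicate 3, 4 or 5, and that of Retnlg also without WT replicate 4 (adjusted p 0.0585 to 0.163 over these).

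**Figure D2:**
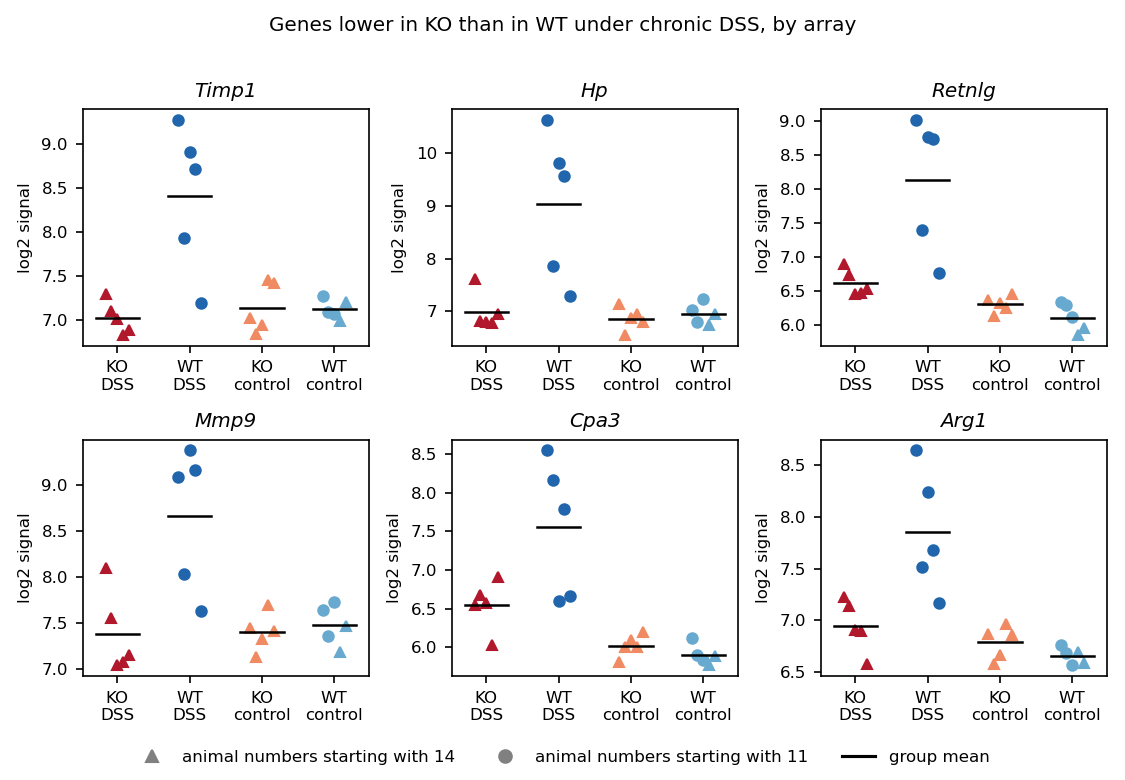
Log2 signal of 6 genes lower in KO under chronic DSS (vertical axes), 1 point per mouse, for KO DSS, WT DSS, KO control and WT control; bars are group means and symbols give the number series. WT DSS replicates 2 and 5 lie low for Timp1, Hp, Retnlg and Mmp9, and the control groups overlap.

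Several genes with differences as large did not pass, and their WT values were widely spread. Lcn2, the iron-binding lipocalin of inflamed epithelium and neutrophils, had 8.47, 8.17, 7.32, 7.28 and 7.80 in KO and 11.86, 8.70, 11.15, 10.46 and 8.24 in WT, a difference of -2.27 (adjusted p = 0.0518). Saa3, a serum amyloid gene, differed by -2.19 (adjusted p = 0.0531). S100a8, a subunit of calprotectin, had 7.38, 6.55, 6.14, 6.19 and 6.32 in KO and 9.24, 6.60, 8.99, 9.07 and 6.51 in WT, a difference of -1.56 (adjusted p = 0.11). The chemokine receptor gene Cxcr2 and the cytokine gene Il1b differed by -1.54 and -1.57 (adjusted p 0.0843 and 0.0905). For each of these genes WT replicates 2 and 5 were the lowest WT arrays.

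All 15 neutrophil genes measured had negative differences, beside 44.0% positive over all genes. Their median was -0.82 under DSS and 0.05 in controls, and 1 of 15 passed, beside 1.30% lower over all genes. Their mean signal was 7.86, 7.37, 7.15, 7.00 and 7.38 in KO DSS colons and 8.76, 7.51, 8.75, 8.62 and 7.40 in WT DSS colons. WT replicates 2 and 5 lay within the KO range and the other 3 WT arrays above it. WT replicates 1, 3 and 4 were also the highest arrays for Timp1, Hp and Mmp9. For Timp1 and Hp, however, WT replicate 2 lay above all KO arrays. The part of neutrophil content in those differences was not tested. Of 22 acute-phase and antibacterial genes 1 passed, and of 21 genes of the interleukin 1, 6, 17 and 22 axes none did, with medians of -0.22 and -0.23. Among 10 CXC chemokine genes Ppbp, the platelet basic protein, fell by 0.76 (adjusted p = 0.0425, and up to 0.133 with 1 array left out), and Cxcl5 and Cxcl2 differed by -1.29 and -1.12 without passing.

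Of the other immune cell lists, those of mast cells and macrophages held genes that passed, with medians of -0.25 and -0.41, while none of 16 cytotoxic lymphocyte genes and none of 22 type I interferon-stimulated genes passed, with medians of -0.04 and -0.01. Cpa3, the carboxypeptidase of mast cell granules, had 6.55, 6.68, 6.57, 6.03 and 6.91 in KO and 8.55, 8.17, 6.60, 7.79 and 6.66 in WT, and fell by 1.00 (adjusted p = 0.0235). Its high WT arrays were replicates 1, 2 and 4, a different set from the neutrophil genes, since WT replicate 3 was low. Ms4a2, the beta chain of the high-affinity IgE receptor, fell by 0.25 (limma adjusted p = 0.0267) with no overlap. Its call ended in 6 of the 10 omissions of 1 array (adjusted p up to 0.0936). In all, 2 of 11 mast cell genes passed, beside 1.30% lower over all genes. The mast cell protease gene Mcpt4 differed by -0.54 (adjusted p = 0.0592) and Kit, also a gene of interstitial pacemaker cells, by 0.49. Of 20 macrophage and monocyte genes 1 passed, Arg1, the arginine-degrading enzyme of alternatively activated macrophages. Arg1 had 7.22, 7.14, 6.91, 6.89 and 6.58 in KO and 8.64, 7.52, 8.24, 7.68 and 7.17 in WT, and fell by 0.90 (adjusted p = 0.0263). The calls of Cpa3 and Arg1 each ended in 5 of the 10 omissions of 1 array, WT replicate 1 and KO replicates 3 and 4 among them (adjusted p up to 0.0983 and 0.116).

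B cell and plasma cell genes were lower without passing. All 17 B cell genes and all 10 plasma cell genes had negative differences, beside 44.0% positive over all genes. Their medians were -0.56 and -0.33, and none passed. In controls the medians were -0.37 and 0.31. The mean signal of the B cell genes was 8.85, 7.73, 7.45, 8.14 and 8.12 in KO DSS colons and 7.84, 8.40, 9.58, 8.39 and 8.76 in WT DSS colons, so that WT replicate 3 stood highest and KO replicate 1 above the other 4 WT arrays. Igkv6-20, a variable segment of the antibody kappa light chain, had 8.32, 8.51, 7.96, 9.55 and 8.40 in KO and 9.84, 11.20, 12.62, 10.18 and 9.11 in WT, and fell by 2.04 (adjusted p = 0.0306). WT replicate 3 was its highest array, and its call ended without WT replicate 2 or 3 or KO replicate 3 or 5 (adjusted p 0.0713 to 0.16). Variable segments resemble each other, so probes of 1 segment may read others. The heavy chain gene Igha and the joining chain gene Jchain each differed by -0.21 and did not pass. Other members of their lists differed more. The 3 measured immunoglobulin constant genes ran from -1.3 to -0.21 with a median of -0.95, beside a median of 1.12 in controls, and none passed. The plasma cell genes ran from -0.81 to -0.21.

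The remaining genes with the largest decreases belonged to no single group. Trf (transferrin, the iron carrier) fell by 1.01, Sema7a (a membrane-anchored semaphorin) by 0.88 and Car5b (a mitochondrial carbonic anhydrase) by 0.83, and in all 3 every KO value lay below every WT value. Trim29, a stress-responsive ubiquitin ligase gene of epithelia, had 8.10, 7.73, 7.91, 7.41 and 7.13 in KO and 8.94, 8.31, 9.18, 8.78 and 7.49 in WT, and fell by 0.88 (adjusted p = 0.0126). Its only low WT array was again replicate 5. Nt5c1a (a nucleotidase that makes adenosine), Aldh1a3 (which makes retinoic acid) and Capg (an actin-capping protein) fell by 1.23, 1.18 and 0.91. Slc16a3, the lactate exporter of glycolytic cells, fell by 0.86. Slc2a1, the glucose transporter GLUT1, and Pgam1, a glycolytic mutase, fell by 0.48 and 0.44. With Slc16a3 they made up 3 of 18 hypoxia and glycolysis genes that passed, beside 1.30% lower over all genes. The list median was -0.25. None of these 10 calls held without WT replicate 3 (adjusted p 0.0717 to 0.207) or without KO replicate 5 (adjusted p 0.0573 to 0.136), and that of Trim29 held in the other 8 omissions.

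**Figure D3:**
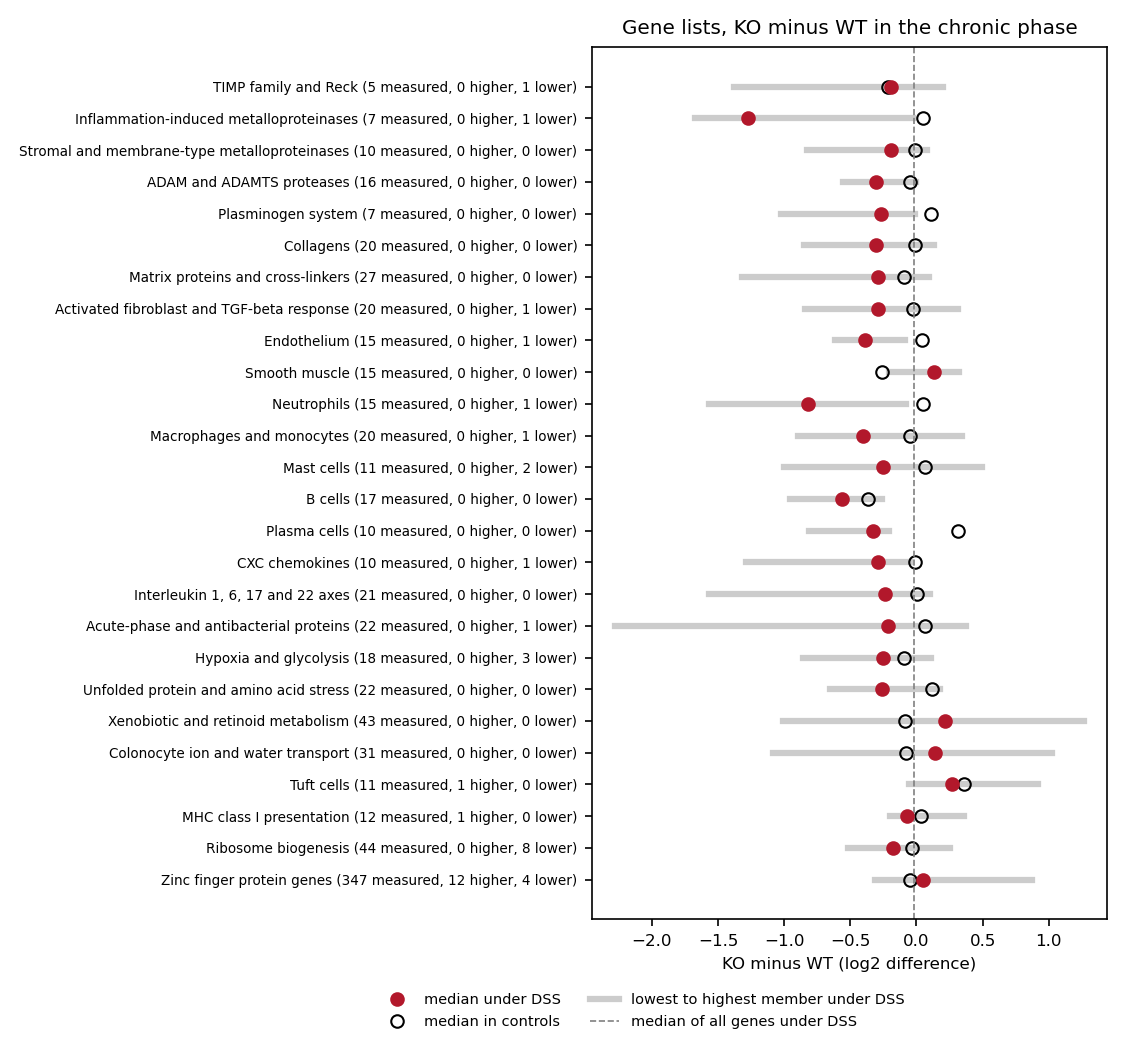
Gene lists down the page and the KO minus WT log2 difference across it: filled points are list medians under chronic DSS, open points the medians in chronic controls, and grey bars run between the lowest and highest member under DSS. Of the lists drawn, inflammation-induced metalloproteinases and neutrophil genes have the lowest medians under DSS, -1.28 and -0.82, and each has 0.05 in controls.

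Several genes of ribosome assembly were lower in KO by small amounts. Nop2, which methylates ribosomal RNA in the nucleolus, had 9.43, 9.28, 9.24, 9.39 and 9.18 in KO DSS colons and 9.81, 9.84, 9.86, 9.97 and 9.49 in WT DSS colons. The groups did not overlap, and Nop2 fell by 0.49 ± 0.08 (SE; adjusted p = 0.00152). Grwd1, a chaperone of a ribosomal protein, had 8.39, 8.32, 8.11, 8.11 and 8.11 in KO and 8.62, 8.70, 8.81, 8.78 and 8.41 in WT, and fell by 0.46 (adjusted p = 0.00863) with KO below WT. Nolc1, Ccdc86 and Nhp2, genes of nucleolar proteins, fell by 0.52, 0.42 and 0.40. In all, 8 of 44 ribosome biogenesis genes were lower in KO and none higher, beside 1.30% lower over all genes. The list median was -0.18 under DSS and -0.03 in controls. By array, the list mean was 9.14 to 9.22 in KO and 9.37, 9.37, 9.45, 9.45 and 9.09 in WT, so WT replicate 5 lay below all KO arrays. The list's median DSS minus control differences were -0.06 in KO and 0.10 in WT. This list was drawn up after its members' values had been seen, so its count is a description. Srm, which makes the polyamine spermidine, fell by 0.55 (adjusted p = 0.0404). By contrast, 67 genes of the cytosolic ribosome's own proteins had a median of 0.03, with 3 higher and none lower, beside 1.18% higher over all genes. The calls of Nop2 and Grwd1 held in all 10 omissions of 1 array, those of Nolc1 and Nhp2 ended without WT replicate 3 (adjusted p 0.0717 and 0.0522), and those of Srm and Ccdc86 in 7 of the 10 (adjusted p up to 0.163).

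Promoter sequences of RefSeq (GRCm38.p6; 250 bases before to 50 after each gene's start) were matched to 209 of the 260 lower, 190 of the 235 higher and 15614 of all genes. Of 9 motifs searched on both strands, CCGGAAG, the core bound by ETS-family factors, occurred in 33% of lower, 24.2% of higher and 13.6% of all promoters. The GC box GGGCGG occurred in 65.1% of lower, 70% of higher and 52.9% of all promoters, and TATAAA in 13.4%, 4.21% and 13.6%. CCAAT occurred in 39.2% of lower, 38.9% of higher and 41.7% of all promoters, CACGTG in 12.9%, 11.1% and 9.5%, TGANTCA in 9.57%, 5.26% and 8.08%, and TTNNGCAA in 8.61%, 11.1% and 11.3%. The remaining motifs, those of NF-kappaB and ZBTB33, occurred in at most 2.63% of any set. These shares are descriptions, and a match says only that these letters are present. The stretches of 250 bases before the start are shown for 3 ribosome assembly genes that fell and for Hnrnpd, an RNA-binding protein gene that rose, with the ETS core in capitals. These genes were picked by hand and each holds the core. Its share among the ribosome assembly genes was not counted. Counted from the gene's start, the core begins at -38 in Nop2 (chr6:125131633-125131882, plus strand), at -39 in Grwd1 (chr7:45830790-45831039, minus strand), at -23 in Nhp2 (chr11:51619523-51619772, plus strand) and, on the opposite strand as CTTCCGG, at -178 in Hnrnpd (chr5:99978939-99979188, minus strand).
Nop2: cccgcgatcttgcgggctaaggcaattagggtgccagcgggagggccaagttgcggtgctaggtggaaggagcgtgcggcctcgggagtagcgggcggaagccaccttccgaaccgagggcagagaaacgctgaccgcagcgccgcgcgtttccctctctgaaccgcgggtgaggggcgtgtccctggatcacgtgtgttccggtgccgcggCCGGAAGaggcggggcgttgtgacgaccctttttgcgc
Grwd1: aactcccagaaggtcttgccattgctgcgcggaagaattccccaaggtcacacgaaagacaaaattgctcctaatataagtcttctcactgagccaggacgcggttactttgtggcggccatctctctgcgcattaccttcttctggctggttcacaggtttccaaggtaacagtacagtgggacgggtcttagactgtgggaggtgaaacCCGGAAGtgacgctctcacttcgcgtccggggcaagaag
Nhp2: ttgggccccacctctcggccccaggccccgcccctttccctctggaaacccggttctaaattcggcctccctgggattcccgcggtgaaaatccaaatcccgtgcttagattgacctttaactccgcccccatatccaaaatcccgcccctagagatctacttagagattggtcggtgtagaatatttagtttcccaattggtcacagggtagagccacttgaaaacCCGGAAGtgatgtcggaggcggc
Hnrnpd: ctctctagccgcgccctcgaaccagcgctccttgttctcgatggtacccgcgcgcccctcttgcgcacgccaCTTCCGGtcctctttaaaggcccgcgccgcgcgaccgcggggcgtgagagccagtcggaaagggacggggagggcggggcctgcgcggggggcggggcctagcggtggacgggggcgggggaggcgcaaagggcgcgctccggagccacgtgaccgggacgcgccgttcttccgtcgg

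Of the genes higher in KO under DSS, 4 also passed in mice without DSS. Xpnpep2, a membrane-bound aminopeptidase that removes residues before proline, had 9.70, 10.00, 9.43, 10.54 and 8.91 in KO DSS colons and 7.63, 7.59, 7.99, 7.36 and 7.64 in WT DSS colons, a difference of 2.07 ± 0.25 (SE; adjusted p = 1.47e-05), or 4.20-fold. Wdfy1, an endosomal adaptor of Toll-like receptor signalling, had 9.20, 9.20, 9.11, 9.23 and 9.06 in KO and 8.25, 8.43, 8.29, 8.60 and 8.45 in WT (0.76 ± 0.09, SE; adjusted p = 1.47e-05). Both genes separated the groups with no overlap. Camk2b, a calcium-dependent kinase subunit, rose by 0.55 (adjusted p = 0.000717), and AI506816, a gene named by its clone only, by 1.17 (adjusted p = 0.00336). In the chronic controls the 4 differences were 1.60, 0.92, 0.57 and 1.01, and all passed there. In controls 20 of 19938 genes passed (0.100%), 14 higher (0.0702%) and 6 lower (0.0301%) in KO, and 1886 had an unadjusted p under 0.05. Leaving out 1 control array moved that count between 4 (without WT control replicate 2) and 280 (without KO control replicate 2). These 4 calls held in all 10 omissions of 1 DSS array. Between the 2 number series within WT controls these genes differed by -0.16, 0.14, -0.01 and 0.59, in the same order.

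**Figure D4:**
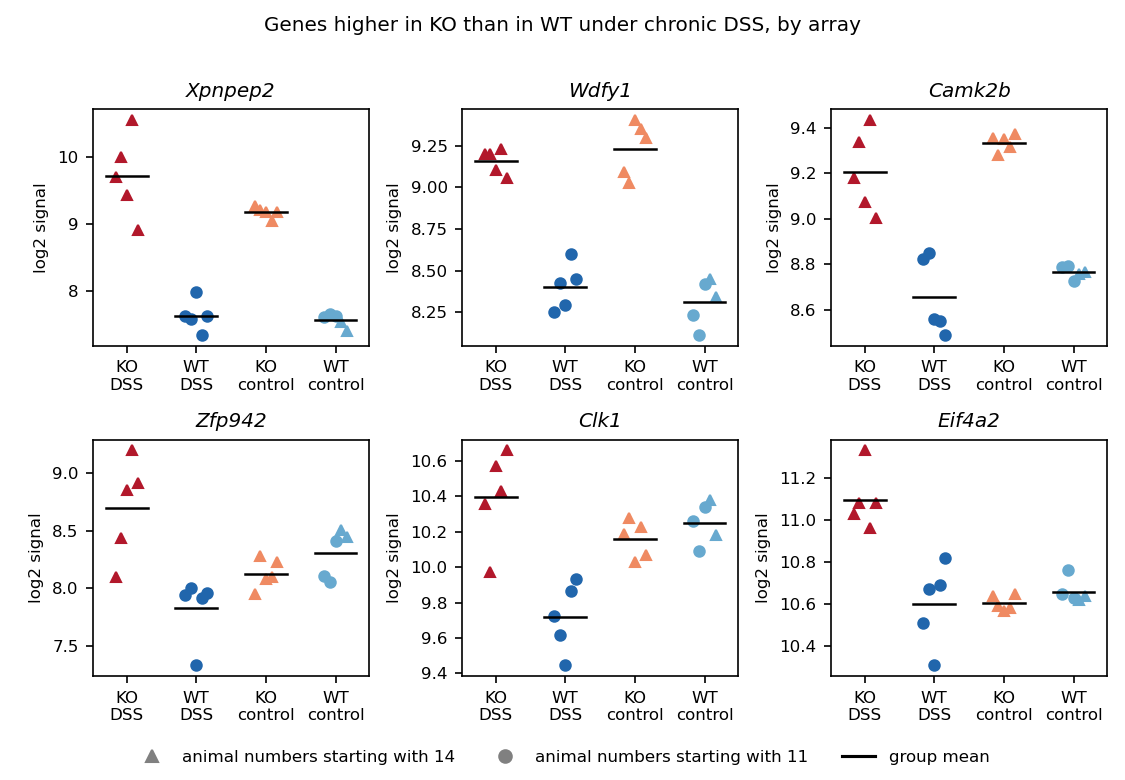
Log2 signal of 6 genes higher in KO under chronic DSS (vertical axes), 1 point per mouse, laid out as KO DSS, WT DSS, KO control and WT control; bars are group means and symbols give the number series. Xpnpep2, Wdfy1 and Camk2b separate KO from WT in both pairs of groups, and Zfp942, Clk1 and Eif4a2 in the DSS pair alone.

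No other gene that rose under DSS passed in controls. Zfp942, a zinc finger gene, had 8.10, 8.44, 8.86, 9.20 and 8.91 in KO DSS colons and 7.94, 8.00, 7.33, 7.92 and 7.96 in WT DSS colons, a difference of 0.87 (adjusted p = 0.00372) beside -0.17 in controls. The groups did not overlap, and WT replicate 3 lay far below the other WT arrays. Its relatives Zfp944 and Zfp62 rose by 0.70 and 0.60, and of 347 genes with the Zfp symbol 12 rose and 4 fell, with a median of 0.05. The background is 1.18% of all genes higher and 1.30% lower; the list was drawn up after values had been seen, so its count is a description.

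Some genes of RNA splicing and RNA binding rose by small amounts. Clk1, a kinase that phosphorylates SR splicing factors, had 10.36, 9.97, 10.57, 10.43 and 10.66 in KO and 9.73, 9.62, 9.45, 9.87 and 9.93 in WT, a difference of 0.68 (adjusted p = 0.000717). All KO values lay above all WT values, with WT replicate 5 just below KO replicate 2. Clk4, its relative, rose by 0.47, Snrpe, a core protein of the spliceosome, by 0.66, and Prpf39, a U1 splicing component, by 0.58. Rbm12b2 rose by 0.90, Matr3 (matrin 3, a nuclear matrix protein) by 0.46 and Eif4a2 (a translation initiation helicase) by 0.50. By list, 2 of 13 SR and CLK genes rose, 4 of 38 RNA-binding motif genes rose, and of 17 hnRNP genes 3 rose and 1 fell, with medians of 0.10, 0.01 and 0.10 beside -0.02 over all genes and a background of 1.18% higher. Of the RNA-binding motif genes 21 of 38 had positive and 17 had negative differences, beside 44.0% positive over all genes. These lists too were drawn up after values had been seen, so their counts are descriptions. The calls of Clk4 and Prpf39 each ended without WT replicate 3 or KO replicate 3, 4 or 5 (adjusted p up to 0.0831).

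Other increases were scattered over metabolism. Guf1 (a mitochondrial translation factor), Aspa (aspartoacylase, which releases acetate from N-acetylaspartate), Chpt1 (which makes phosphatidylcholine), Etfbkmt (a mitochondrial methyltransferase) and Mindy2 (a deubiquitinase) rose by 0.67, 0.67, 0.60, 0.68 and 0.70. The calls of Chpt1, Etfbkmt and Mindy2 ended without WT replicate 3 or KO replicate 3 or 4, and those of Chpt1 and Mindy2 also without KO replicate 5 and that of Chpt1 without WT replicate 4 (adjusted p up to 0.135, 0.0751 and 0.109). Gnat3, the taste G protein subunit of tuft cells, had 6.41, 6.74, 6.56, 7.15 and 7.11 in KO and 5.97, 6.55, 5.45, 5.46 and 5.96 in WT, and rose by 0.92 (adjusted p = 0.0181). It was the 1 of 11 tuft cell genes to pass, beside 1.18% higher over all genes. The list's medians were 0.27 under DSS and 0.36 in controls. B2m, the light chain shared by class I histocompatibility molecules, rose by 0.36 (adjusted p = 0.0313), with 13.25 to 13.61 in KO and 12.90 to 13.23 in WT. It was the 1 of 12 class I presentation genes to pass, and their median was -0.07. Gnat3 and B2m lost the call without WT replicate 3 or 4 or KO replicate 4 or 5, and B2m also without WT replicate 1 or KO replicate 3 (adjusted p up to 0.0875 and 0.12).

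Among genes of epithelial function, none of 31 genes of colonocyte ion and water transport and none of 43 xenobiotic and retinoid metabolism genes passed. Their medians were 0.14 and 0.22, and 20 of 31 and 33 of 43 were positive, beside 44.0% of all genes. Their members ran from -1.08 to 1.02 and from -1.01 to 1.26. Trpm6, the channel for magnesium uptake, differed by 1.02 (adjusted p = 0.067), with KO replicates 1, 3 and 5 above all WT arrays. Sult1a1, which sulphates phenols, differed by 1.26 (adjusted p = 0.0975). None of 15 smooth muscle genes passed, with a median of 0.13 under DSS and -0.26 in controls.

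Some named genes kept their call under every omission. Genes entered this count by passing on these same arrays, so it is a description and no independent check. Of the 55 named genes that passed beside Timp1, 18 passed with each of the 10 arrays left out in turn: Xpnpep2, Wdfy1, Camk2b, AI506816, Rbm12b2, Zfp942, Zfp944, Zfp62, Clk1, Guf1, Aspa, Snrpe, Eif4a2, Matr3, Nop2, Grwd1, Klhl9 and Norad. Klhl9, an adaptor of a ubiquitin ligase, had 9.96, 9.72, 9.73, 9.78 and 9.74 in KO and 10.13, 10.12, 10.35, 10.15 and 10.14 in WT, and fell by 0.39 ± 0.05 (SE; adjusted p = 0.000181). Norad, a long noncoding RNA that binds Pumilio proteins, had 10.78, 10.35, 10.36, 10.48 and 10.45 in KO and 10.93, 10.92, 10.91, 10.82 and 10.90 in WT, and fell by 0.41 (adjusted p = 0.000181). Neither gene's groups overlapped, and the differences in controls were 0.10 and -0.03. Of the same 55 genes, 4 passed with the 10 arrays alone (Xpnpep2, Wdfy1, AI506816 and Car5b) and 5 with number series as a covariate (Xpnpep2, Ezh1, Tbl2, Mterf2 and Trim65).

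Whether the genotype difference under DSS differed from that in controls was tested as an interaction. It passed for 84 of 19938 genes (0.421%), 54 positive (0.271%) and 30 negative (0.150%), and for 59 of the 495 genes, 41 that rose and 18 that fell. The interaction contains the DSS difference by which the 495 were selected. Its overlap with them is therefore a description and no independent check. Examples are Zfp942 (1.04, adjusted p = 0.0338), Zfp944 (0.79, adjusted p = 0.0208), Guf1 (0.90, adjusted p = 0.0194), Clk1 (0.77, adjusted p = 0.0252) and Klhl9 (-0.49, adjusted p = 0.00539). The interaction did not pass for Hp, Retnlg, Mmp9 or Timp1 (-1.95, -1.72, -1.20 and -1.39; adjusted p 0.158, 0.157, 0.205 and 0.157). The controls used here were of both number series for WT and of 1 for KO, and with WT controls of the 11 series alone, an alternative chosen after the data were seen, 98 genes passed (0.492%). With 1 of the 20 chronic arrays left out the count ran between 5 (without KO DSS replicate 3 or 4) and 422 (without KO control replicate 2).

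The 4 groups can be read side by side, on arrays that the differences share. Hp was higher in DSS than control colons by 0.13 in KO (adjusted p = 0.905) and by 2.08 in WT (adjusted p = 0.00301). For Mmp9 the DSS minus control differences were -0.02 in KO and 1.19 in WT (adjusted p = 0.0127 in WT), and for Retnlg 0.31 and 2.03 (adjusted p = 0.00112 in WT). Clk1 differed by 0.24 in KO and -0.53 in WT (adjusted p = 0.000782 in WT), and Snrpe by 0.92 in KO (adjusted p = 5.91e-06) and 0.14 in WT. Klhl9 differed by -0.45 in KO (adjusted p = 5.73e-06) and 0.04 in WT. Over all genes, 1583 passed for DSS against control in KO (7.94%) and 2864 in WT (14.4%).

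**Figure D5:**
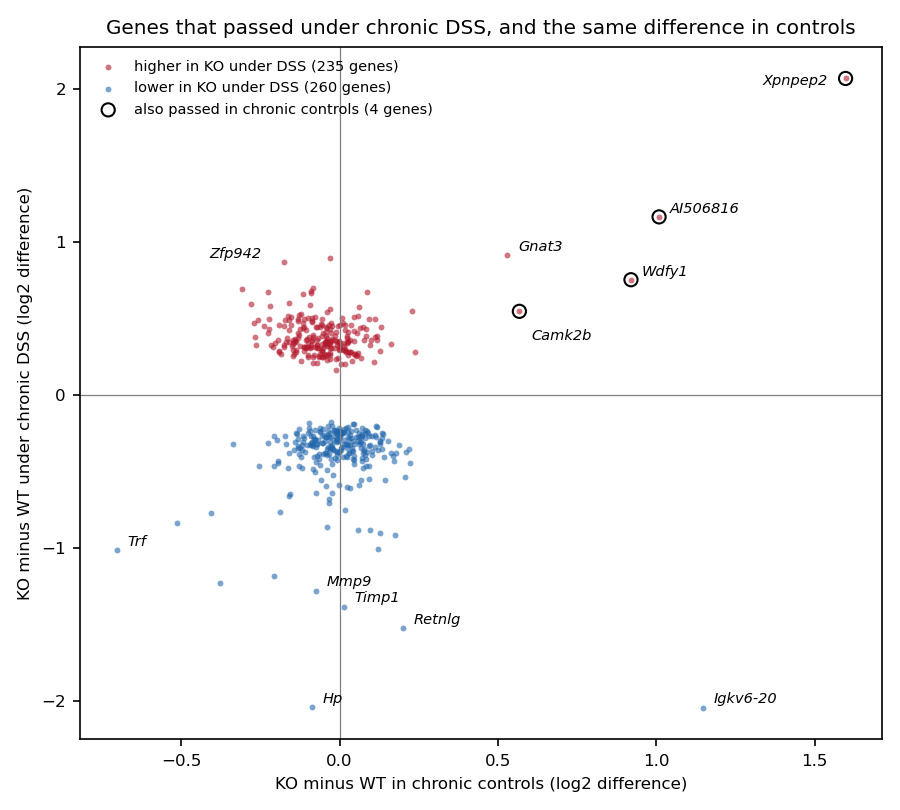
Each of the 495 genes that passed under chronic DSS, with the KO minus WT log2 difference in chronic controls across and under chronic DSS up the page; circles mark the 4 genes that also passed in controls. Most genes lie near 0 in controls, and Xpnpep2, AI506816, Wdfy1 and Camk2b lie at 0.57 to 1.60 there.

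Differences on arrays outside the DSS groups were set beside the 495 genes. In controls, 65 of the 235 genes higher under DSS (27.7%) and 120 of the 260 lower genes (46.2%) had a positive KO minus WT difference, beside 52.9% of all genes. Between the number series within WT controls (14 minus 11, 2 against 3 arrays), 157 of 235 higher genes (66.8%) and 103 of 260 lower genes (39.6%) had a positive difference, beside 43.2% of all genes, and 19 genes (0.0953%) passed. Genes are not independent of each other, so these shares carry no test. The part of the number series in the DSS difference was not tested beyond the covariate fit.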

How the data were processed

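Total RNA of snap frozen mouse colon was hybridised to 1 array per sample, per the labels' protocols. The authors deposited a log2 signal for each transcript cluster, made with RMA per the submitters' processing notes; the version and any probe filter are not given in the sources used here. The base of the logarithm was read as 2 from the range of the values, 3.03 to 14.96. Array medians lay between 7.67 and 7.76. Arrays hold no molecule counts, so their number limits the precision. Each title's animal number occurs once, and samples were taken as separate mice; p-values measure the spread between these samples.

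Of 35511 clusters, 21789 had 1 symbol in the platform annotation, 1621 several and 12101 were not listed. For 999 genes with several clusters the cluster of highest overall mean was used, giving 19938 genes. All 37 arrays entered 1 fit of 8 group means (limma 3.58.1, R 4.3.3; lmFit and eBayes, 29 residual degrees of freedom), with Benjamini-Hochberg adjustment over all genes and a two-sided threshold of 0.05. The fit was tested on simulated data. Named were the TIMP family, the 15 largest passed differences each way without predicted genes, the 3 largest of each described list, 5 neighbours of Timp1 on each side and genes that passed under DSS and in controls; others named were chosen after their values were seen. The comparison, its genes and the 52 lists (807 of 896 symbols measured) were chosen with earlier results of these data known. Alternatives changed the variance prior, the filter, the normalization, array weights, covariates, the arrays fitted and single arrays left out. Gene order, names and promoters came from RefSeq tables (GRCm38.p6).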

Additional observations from a re-analysis of the deposited data

Results flagged for a closer look

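Within the DSS groups, 3 single gene values stood apart from the other 4 of their group by Dixon's criterion, the zinc finger values on the same array. In all, 64 groups of values were examined, and chance meets this criterion in about 1 of 20 groups. Zfp942 at 7.33 and Zfp944 at 7.35 lay far below the other WT DSS arrays in WT replicate 3. Hp at 7.60 lay above the other KO DSS arrays in KO replicate 1. The Zfp942 and Zfp944 differences passed with WT replicate 3 left out, and that of Hp with KO replicate 1 left out.

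For 9 of the named genes with the largest differences, the KO minus WT difference under DSS differed from that in controls by the interaction test (adjusted p under 0.05). These genes were picked for their DSS difference, which the interaction contains, so the test is no independent check on them. The DSS minus control difference of differences was 1.04 for Zfp942, 0.93 for Rbm12b2, 0.90 for Guf1, 0.79 for Zfp944, 0.78 for Snrpe, 0.77 for Clk1, 0.76 for Aspa and 0.76 for Zfp62. It was -3.19 for Igkv6-20, where KO minus WT was -2.04 under DSS and 1.15 in controls.

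Clusters that the annotation does not list gave a signal outside the comparison by gene. Of 12101 such clusters, 666 were higher in KO DSS colons (5.50%) and 144 were lower (1.19%). Among clusters with 1 symbol the shares were 1.86% and 1.73%. The mean signal of the unlisted clusters was 7.29, 7.16, 7.33, 7.34 and 7.34 in KO DSS colons and 7.15, 7.18, 7.16, 7.23 and 7.19 in WT DSS colons. KO replicate 2 lay within the WT range and the other 4 KO arrays above it. In chronic controls the mean was 7.19 to 7.29 in KO, and in WT 7.29 and 7.26 in the 2 arrays of series 14 and 7.22, 7.17 and 7.25 in the 3 of series 11. What these clusters measure was not analysed here.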

How the results depend on the processing

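The count of 495 genes moved to 1668 with all clusters tested separately, 1624 with array weights, 1019 with the 20 chronic arrays alone, 19 with number series as a covariate and 12 with the 10 arrays alone. The shares higher in KO were 67.3%, 40.3% and 37.4% under the first 3, beside 47.5%. For controls the count of 20 became 32, 1348, 49 (cyclic loess), 5 (series), 4 (series 14 alone) and 6 (10 control arrays alone). For the interaction the count of 84 became 146 without the dimmest genes, 595, 171 (cyclic loess), 1832 (array weights) and 186 (series). The cause of each was not tested.

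With 1 array left out, the counts ran between 58 and 1010 under DSS, 4 and 280 in controls and 5 and 422 for the interaction. Under DSS the count moved by over 1.5 times without WT replicate 1 or 3 or any of the 5 KO replicates. In controls each of the 10 omissions did so, and for the interaction each omission except those of WT DSS replicates 1 and 4 and WT control replicates 1 and 5. Timp1 ran between -1.68 and -1.16; it was -1.33 with the series covariate (adjusted p = 0.579) and -1.38 with the 10 arrays alone (adjusted p = 0.137). Hoxd12, at -0.12, was 1.65 with the series covariate (adjusted p = 9.88e-06).

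Over the 55 named genes that passed beside Timp1, 738 recomputed values kept the call, 300 lost it in the same direction and 0 changed sign. The genes were selected by passing on these same arrays, so the kept signs are a description. The call was lost for 50 with the series covariate, 51 with the 10 arrays alone, 35 without WT replicate 3 and 1 without KO replicate 1 (Mterf2, adjusted p = 0.0528). No paired analysis was possible because the animal codes in the titles give no number that KO and WT mice share.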

Other observations

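Between the number series within WT chronic controls (14 minus 11, 2 against 3 arrays), 19 genes passed. Genes of the HoxD cluster, which set position along the gut, were among the large differences: Hoxd10, Hoxd11 and Hoxd12 differed by -2.11, -2.20 and -1.77. Under DSS the same genes differed between KO and WT by 0.51, 0.06 and -0.12, and none passed.

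Markers of fat attached to the colon varied in the DSS groups. Adipoq, the adipokine gene, had 6.23, 6.83, 7.60, 6.33 and 6.35 in KO and 7.54, 8.84, 6.17, 7.28 and 8.65 in WT, a difference of -1.03 (adjusted p = 0.374). Squamous keratins and acinar enzymes were low and close between groups: Krt5 and Krt14 differed by -0.14 and -0.22 and Cela2a by 0.04.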
